A study of Mus musculus with 6 samples.

Results

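The genes described here encode the proteins of the mitochondrial ribosome, the machine that translates messages made from mitochondrial DNA. Members were all genes whose symbol is Mrpl (large subunit) or Mrps (small subunit) followed by a number, without pseudogenes, and each was read from the probe set, among those that name a single gene, with the highest mean over the 6 arrays. This gave 76 of 18193 genes, 47 Mrpl and 29 Mrps. Mrpl30 and Mrpl53 were only on probe sets that name several genes and were not analysed here. RNA came from sorted mouse bone marrow cells that lacked Flt3 and lineage markers and carried Sca1 and cKit, a gate that holds blood stem and progenitor cells. The 3 mutant arrays came from C57BL/6 mice whose Raptor alleles were both floxed around exon 6 and that carried MxCre, a Cre recombinase under an interferon-responsive promoter. The 3 wild type arrays came from mice of the same background and floxed alleles without MxCre. Both groups were given pIpC, which induces interferon, 3 times within 5 days (15 µg for each g of body weight), and the sort followed 5 weeks later. The labels give neither age nor sex, and do not say whether an array stands for 1 animal or for pooled animals. A p-value here therefore measures only how far these arrays spread, and that spread may be technical. MxCre acts in many tissues besides blood, and the labels do not give the share of sorted cells that had lost exon 6.

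Mitochondrial ribosomes make a small set of hydrophobic subunits of the respiratory chain and of ATP synthase, while all of their own proteins are encoded in the nucleus and imported. The small subunit decodes the message, and the large subunit joins the amino acids and is held at the inner membrane. Compared with bacterial ribosomes, they have less RNA and many added proteins that occur only in mitochondria. Raptor defines mTORC1, a kinase complex that drives growth and is known in other mouse cells to act on mitochondrial genes both through the coactivator PGC-1alpha with YY1 and through translation of nuclear-encoded mitochondrial messages. Levels of RNA, as measured here, do not record translation.

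Promoters of the family are shown first, since NRF1, GABPA (an ETS factor) and YY1 are known regulators of nuclear genes for mitochondria. Windows from 250 bases before to 50 after the start were taken from RefSeq on GRCm38.p6. They were found for 67 members (73 windows), and not for Mrpl13, Mrpl15, Mrpl19, Mrpl38, Mrpl4, Mrpl54, Mrps28, Mrps34 and Mrps35. The letters searched, on both strands, were CGCNTGCG for NRF1, CCGGAAG for GABPA and other ETS factors, AANATGGCG for YY1 and CACGTG, the E-box bound by MYC and TFE3. Any of these motifs was found in 45 of the 67 members. Of the 9 members described below whose mutant and wild type values did not overlap, 7 had a window, and 4 of those held a motif. These 4 are printed 5′ to 3′ on the strand of the gene, with the matched letters in capitals. Mrps27 lies at chr13:99344536-99344835 on the plus strand, Mrpl17 at chr7:105811038-105811337 on the minus strand, Mrpl3 at chr9:105053018-105053317 on the plus strand and Mrpl32 at chr13:14612988-14613287 on the minus strand.
Mrps27: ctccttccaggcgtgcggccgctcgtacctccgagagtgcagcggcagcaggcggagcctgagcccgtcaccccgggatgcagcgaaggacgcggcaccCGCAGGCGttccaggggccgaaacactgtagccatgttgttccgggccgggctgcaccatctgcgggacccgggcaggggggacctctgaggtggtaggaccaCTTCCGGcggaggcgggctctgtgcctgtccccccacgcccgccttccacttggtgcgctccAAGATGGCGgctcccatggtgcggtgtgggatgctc
Mrpl17: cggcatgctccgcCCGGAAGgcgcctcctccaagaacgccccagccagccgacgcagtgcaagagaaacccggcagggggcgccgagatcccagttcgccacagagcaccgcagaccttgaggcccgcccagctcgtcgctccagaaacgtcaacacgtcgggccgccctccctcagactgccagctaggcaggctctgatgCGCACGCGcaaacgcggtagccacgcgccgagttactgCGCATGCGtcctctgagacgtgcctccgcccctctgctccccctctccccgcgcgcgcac
Mrpl3: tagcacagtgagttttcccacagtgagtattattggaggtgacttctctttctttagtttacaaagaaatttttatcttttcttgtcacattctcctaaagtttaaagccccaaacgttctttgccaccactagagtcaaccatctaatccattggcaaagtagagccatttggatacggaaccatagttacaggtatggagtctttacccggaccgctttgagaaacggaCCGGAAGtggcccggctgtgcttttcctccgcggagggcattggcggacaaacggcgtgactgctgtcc
Mrpl32: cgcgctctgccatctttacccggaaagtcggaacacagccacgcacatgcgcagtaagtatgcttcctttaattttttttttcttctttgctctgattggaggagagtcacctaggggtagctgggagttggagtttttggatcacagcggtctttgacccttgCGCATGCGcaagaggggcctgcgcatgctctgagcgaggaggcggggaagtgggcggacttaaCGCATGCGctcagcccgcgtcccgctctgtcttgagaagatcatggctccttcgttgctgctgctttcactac

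Mrps27 held an NRF1 match, an ETS match and, past the start, a YY1 match. Mrpl17 held 1 ETS match and 2 NRF1 matches, Mrpl3 held 1 ETS match and Mrpl32 held 2 NRF1 matches. Among all 73 member windows, 19 held the NRF1 letters (26.0%), against 8.21% of the 32851 windows of all genes. The ETS letters were in 25 (34.2%), against 8.86% of all windows, and the YY1 letters in 11 (15.1%), against 2.38%. The E-box letters were in 7 (9.59%), against 7.15%, but 3 of these are overlapping windows of Mrpl2, and 5 of 67 genes held them. Member windows had a median GC content of 58.7%, against 52.7% in all windows. Among windows with at least 53% GC the shares were 30.9% of members against 15.1% of all windows for NRF1, 36.4% against 14.5% for ETS, 12.7% against 3.84% for YY1 and 9.09% against 9.78% for the E-box. This floor does not match windows for the pair CG, which all of the searched letters contain. Member windows held a median of 21 CG pairs, against 7 in all windows, and the part of this in the shares was not tested. Matches of different motifs overlapped in 0 member windows, and matches of the same motif in 1, that of Mrps26, where NRF1 matches share bases. The median log2 fold change was 0.02 with an NRF1 match and 0.09 without, 0.07 in either case for ETS, 0.14 with a YY1 match and 0.06 without, and -0.05 with an E-box match and 0.08 without. A match describes the letters of the window and is no evidence of binding.

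Facts of the whole series that touch these genes are given here once. Values are log2 signals after RMA, which has no true zero, and array medians lay between 6.85 and 6.94. The brightest Rptor probe set, which was not placed on the gene's exons and so checks nothing, read 8.68, 7.99 and 8.33 in mutant cells, against 8.57, 8.17 and 7.59 in wild type cells. Y-linked genes (Eif2s3y and Kdm5d) had a mean log2 signal of 3.82 to 4.21 on the mutant arrays and 3.79 on wild type array 1, against 10.7 and 10.0 on wild type arrays 2 and 3. In this signal wild type array 1 was thus like the mutant arrays and unlike the other wild type arrays. Genotype and Y-linked signal are therefore partly confounded, and the part of sex was not tested. Over all probe sets wild type array 1 correlated at 0.977 to 0.984 with the mutant arrays. Wild type arrays 2 and 3 correlated at 0.957 with each other, at 0.962 and 0.967 with wild type array 1 and at 0.960 to 0.968 with the mutant arrays. By this measure they did not form a group of their own. Counts and medians of the whole family are given below both against wild type array 1 alone and without it. For subunits and structural classes only some such values are given, and for the lists of other genes, taken as groups, none. Cell type markers moved with the genotype. All 4 measured stem cell markers were lower on every mutant array (list mean 9.58 to 9.82, against 10.7 to 10.8 in wild type), as were all 5 granulocyte markers (7.98 to 9.35, against 11.03 to 11.83). Of 5 mast cell and basophil markers 4 were higher (9.84 to 10.5, against 7.21 to 8.03), and 3 of 5 macrophage and dendritic cell markers (7.45 to 8.17, against 6.51 to 6.86). T and NK, B and erythroid markers overlapped, and 1 of 3 megakaryocyte markers was lower. Of the gate, Kit read 10.71 to 10.94 on mutant arrays, against 10.72 to 11.17 in wild type, and Flt3, by whose absence at the surface the cells were sorted, read 9.64 to 10.18, against 9.51 to 10.79. Flt3 RNA signal was thus well above the array medians in both genotypes. The part of these cell types in the results below was not tested, and in bulk RNA fewer cells of a type and less RNA per cell cannot be told apart.

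No gene of the mitochondrial ribosome passed the test between mutant and wild type cells. With limma over all 18193 genes and Benjamini-Hochberg adjustment, 0 of 76 members were called at an adjusted p under 0.05, and 20 of all genes were (0.110%). The smallest adjusted p of a member was 0.238, and it stayed between 0.125 and 0.639 in 18 other settings of the analysis, with 0 members called in each. At an unadjusted p under 0.05 in limma there were 4 members (2 Mrpl and 2 Mrps), or 5.26%. This compares with 10.0% of all genes and 14.0% of genes above the median signal. Fold changes were small, and 70 of 76 members lay within 0.5 of no change on the log2 scale. The 3 mutant values lay above the 3 wild type values in 9 members (11.8%), against 8.08% of all genes, and below them in 0 members, against 7.98%. Members are bright genes, all above the 53rd percentile of mean signal, and among the 9097 genes above the median signal 13.4% were higher without overlap and 7.28% lower. The share of members higher without overlap is thus near that of genes of like brightness.

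**Figure D1:**
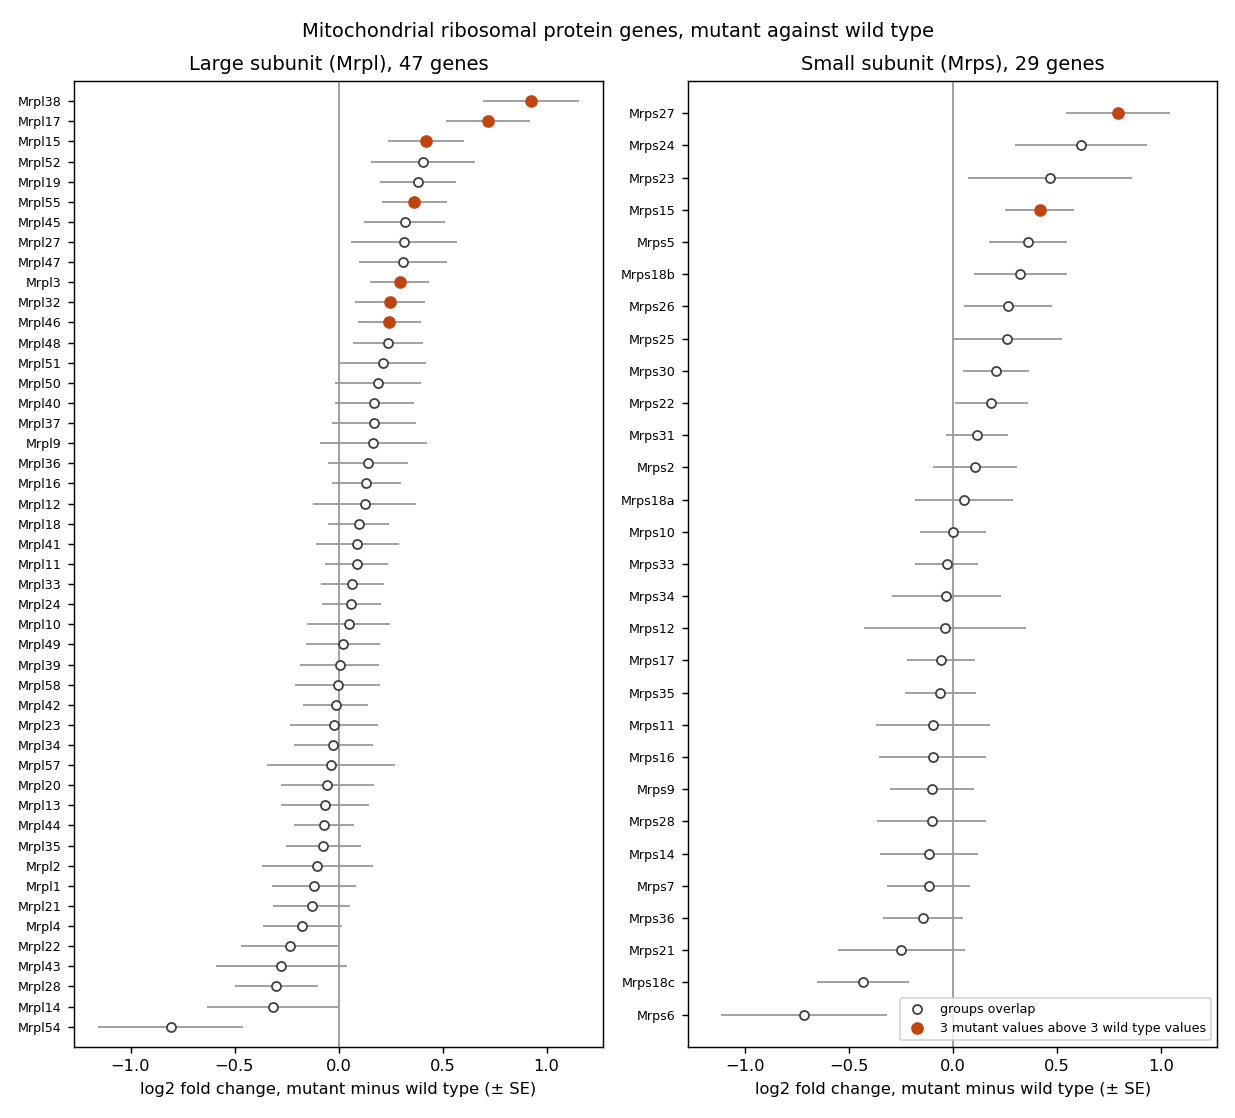
Log2 fold change (x axis, mutant minus wild type, ± SE from limma, 3 arrays per group) of the 47 large subunit genes (left) and 29 small subunit genes (right), in order of size. Filled points mark the 9 genes whose 3 mutant values lay above the 3 wild type values, Mrpl38 and Mrps27 at the top, and open points mark overlapping groups, with Mrpl54 and Mrps6 at the bottom.

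The subunits were set against each other as wholes. Large subunit genes had a median log2 fold change of 0.09, with 29 of 47 above 0, and small subunit genes one of -0.03, with 14 of 29 above 0. The median was -0.07 over all genes and 0.06 over genes above the median signal. Of the 9 members without overlap 7 were Mrpl (14.9%) and 2 were Mrps (6.90%), against 8.08% of all genes and 13.4% of genes above the median signal. The difference between these medians was 0.12 on the log2 scale. Per array, the mean of the Mrpl genes minus that of the Mrps genes (each gene relative to its own mean) was 0.02, 0.06 and -0.04 on mutant arrays 1 to 3, against 0.04, -0.07 and -0.01 on wild type arrays 1 to 3. These values overlapped between the genotypes. Against wild type array 1 alone, the difference of the medians turned to -0.11, since the Mrps median became 0.30 and the Mrpl median 0.20. Without wild type array 1 the medians were 0.028 for Mrpl and -0.065 for Mrps. Values without overlap were then higher in 8 Mrpl (17.0%) and 4 Mrps (13.8%), against 14.6% of all genes. They were lower in 5 Mrpl (10.6%) and 7 Mrps (24.1%), against 29.5%. Among genes above the median signal these shares were 24.1% higher and 13.7% lower.

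The level of the whole family differed more among the wild type arrays than between genotypes. Relative to each gene's own mean, the 76 members averaged -0.03, 0.07 and 0.09 on mutant arrays 1 to 3, against -0.20, 0.11 and -0.03 on wild type arrays 1 to 3. Wild type array 1 was the lowest of all arrays, wild type array 2 the highest, and the mutant arrays lay between them. The genotype difference of these means was 0.08, with an SD of 0.06 among mutant and 0.16 among wild type arrays. Small subunit genes spread most, averaging -0.04, 0.03 and 0.11 on mutant arrays, against -0.23, 0.16 and -0.02 in wild type. Wild type array 1 was the lowest wild type array in 42 of 76 members (55.3%), against 48.0% of all genes and 27.4% of genes above the median signal. Wild type SD exceeded mutant SD in 56 of 76 members (73.7%), which is close to the 75.8% of all genes.

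**Figure D2:**
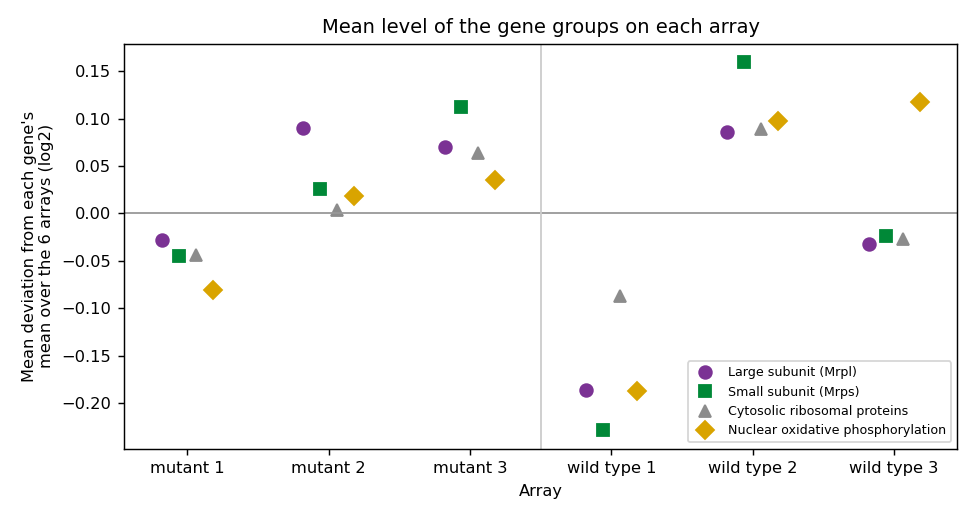
Mean deviation of each gene group from its genes' own 6-array means (y axis, log2) on the mutant arrays (left) and wild type arrays (right). Circles are 47 Mrpl genes, squares 29 Mrps genes, triangles 48 cytosolic ribosomal protein genes and diamonds 81 nuclear oxidative phosphorylation genes. Wild type array 1 is lowest for all 4 groups, and the mutant values lie between wild type arrays 1 and 2, save that mutant and wild type array 2 are about level for Mrpl.

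The counts differed with the wild type arrays used. All 3 mutant arrays lay above wild type array 1 in 49 of 76 members (64.5%), against 33.3% of all genes and 34.0% of genes above the median signal, and below it in 3 (3.95%), against 22.3% of all genes. This sets the mutants against the single wild type array that, like them, lacked Y-linked signal, and it has no spread among wild type arrays. Without wild type array 1, members without overlap numbered 12 higher (15.8%) and 12 lower (15.8%), against 14.6% and 29.5% of all genes. Among genes above the median signal those shares were 24.1% and 13.7%. The family median was 0.21 against wild type array 1 alone and 0.01 against the other wild type arrays.

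Large subunit genes whose values did not overlap are taken first. Mrpl38, a protein found only in mitochondrial ribosomes and part of the central protuberance that faces the small subunit, read 8.39, 8.80 and 8.29 on mutant arrays, against 7.87, 7.65 and 7.18 in wild type. All mutant values were higher, by 0.93 ± 0.23 (SE, log2, limma adjusted p = 0.238), or 1.90-fold. A second Mrpl38 probe set of nearly the same signal differed by 0.12, and the third by -0.17, so the probe sets of this gene disagree. With the mean of its probe sets the Mrpl38 difference was 0.29.

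Mrpl17, a conserved protein beside the exit of the peptide tunnel, read 11.19, 11.84 and 11.52 on mutant arrays, against 10.81, 10.65 and 10.94 in wild type. Its mutant values were all higher, by 0.72 ± 0.20 (SE, log2, limma adjusted p = 0.294). The other Mrpl17 probe sets were far dimmer and differed by 0.23 and -0.43. Mrpl15, a conserved protein of the large subunit core, read 11.09, 10.92 and 10.81 on mutant arrays, against 10.80, 10.46 and 10.31 in wild type. The lowest mutant value was just above the highest wild type value, and the log2 difference was 0.42 ± 0.18 (SE, limma adjusted p = 0.501). Of its 8 probe sets, 7 had a positive difference and 1 a negative one, of -0.34.

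Smaller differences without overlap were seen in 4 more large subunit genes. Mrpl55, of the central protuberance, read 8.91, 9.22 and 9.13 on mutant arrays, against 8.66, 8.82 and 8.69 in wild type, a log2 difference of 0.36 ± 0.16 (SE, limma adjusted p = 0.498). Mrpl3, a conserved protein near the catalytic centre whose human gene is mutated in a mitochondrial heart disease, had the least spread of these genes. Mrpl3 read 11.45, 11.53 and 11.41 on mutant arrays, against 11.12, 11.18 and 11.20 in wild type, a log2 difference of 0.29 ± 0.14 (SE, limma adjusted p = 0.544). The groups of Mrpl3 were narrow and well separated, while its other probe sets differed by 0.32, -0.18 and 0.82. Mrpl32, which is matured by a protease of the inner membrane, read 10.23, 10.16 and 10.56 on mutant arrays, against 10.15, 9.98 and 10.09 in wild type. Mutant array 2 was only just above wild type array 1, and the log2 difference was 0.25 ± 0.17 (SE, limma adjusted p = 0.637). Mrpl46, also of the central protuberance, read 9.83, 10.04 and 9.90 on mutant arrays, against 9.75, 9.73 and 9.57 in wild type, a log2 difference of 0.24 ± 0.15 (SE, limma adjusted p = 0.617).

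In the small subunit, values did not overlap for Mrps27 and Mrps15. Mrps27, a mitochondria-specific protein with RNA-binding repeats, read 9.58, 9.43 and 9.55 on mutant arrays, against 9.06, 8.96 and 8.17 in wild type. Mutant arrays were tight and wild type array 3 was well below the rest, with a log2 difference of 0.79 ± 0.25 (SE, limma adjusted p = 0.348). Without wild type array 3 or any other single array the Mrps27 difference lay between 0.51 and 0.96. Mrps15, a conserved protein that binds the small ribosomal RNA, read 11.05, 11.14 and 11.21 on mutant arrays, against 10.85, 10.48 and 10.81 in wild type. The log2 difference of Mrps15 was 0.42 ± 0.17 (SE, limma adjusted p = 0.468), and its other probe sets differed by 0.31 and 0.08. Mrps24 and Mrps5, conserved proteins of the small subunit, had log2 differences of 0.62 ± 0.32 and 0.36 ± 0.19 (SE), with overlapping values. Differences of the genes without overlap also depend on the wild type array used. Wild type array 1 was the highest wild type array for Mrpl38, Mrpl15, Mrpl32, Mrpl46, Mrps27 and Mrps15. Against it alone their differences are thus smaller. It was the lowest for Mrpl55 and Mrpl3, whose differences against it are larger, and lay between the others for Mrpl17.

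**Figure D3:**
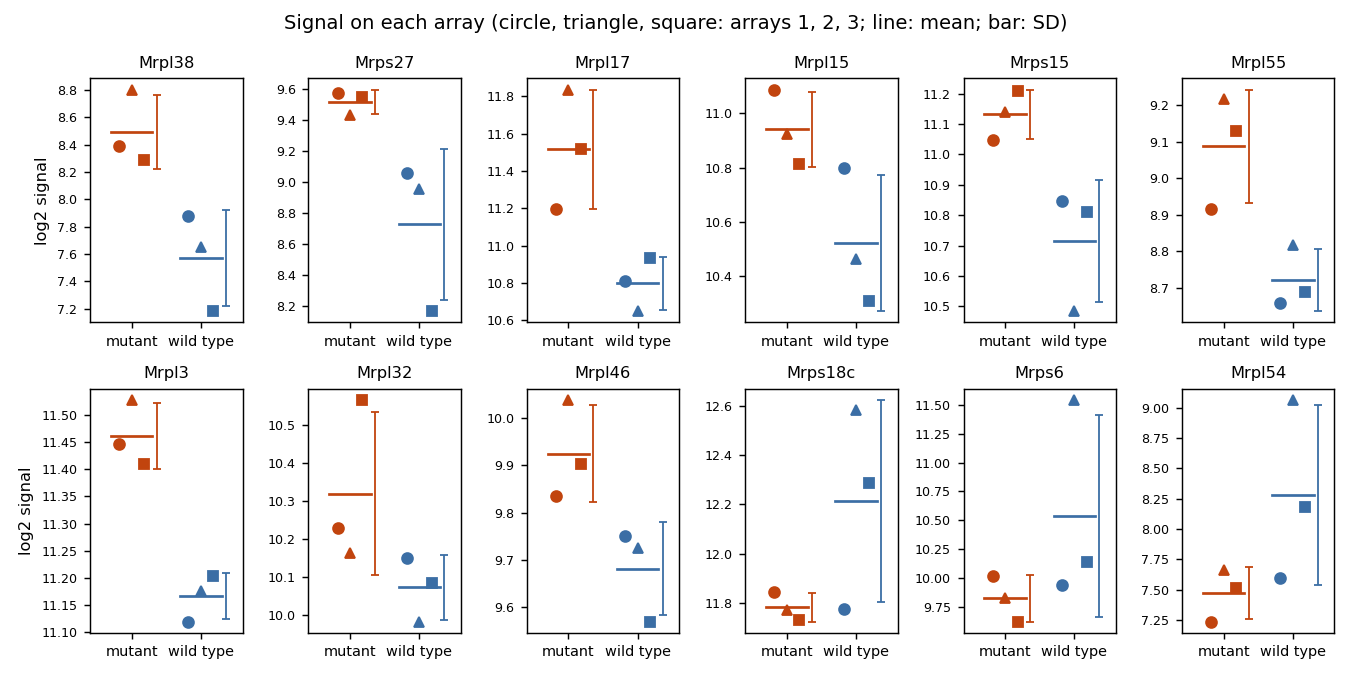
Log2 signal (y axis, a separate scale in each panel) of 12 members on the mutant arrays (left in each panel) and wild type arrays (right), with circle, triangle and square for arrays 1, 2 and 3, a line for the mean and a bar for the SD. The first 9 genes are those without overlap between groups. In the last 3, Mrps18c, Mrps6 and Mrpl54, wild type array 2 is the highest and wild type array 1 lies near the mutant arrays.

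The lowest fold changes shared a pattern across arrays. Mrpl54, which sits by the stalk base of the large subunit, read 7.24, 7.67 and 7.52 on mutant arrays, against 7.60, 9.06 and 8.18 in wild type. Its log2 difference was -0.81 ± 0.35 (SE, limma adjusted p = 0.499), and a dimmer Mrpl54 probe set differed by 0.46. Mrps6, a conserved protein of the small subunit platform, read 10.02, 9.83 and 9.62 on mutant arrays, against 9.94, 11.54 and 10.13 in wild type, a log2 difference of -0.72 ± 0.40 (SE, limma adjusted p = 0.584). In both genes wild type array 2 was far above every other array, and wild type array 1 lay among the mutant arrays. Against wild type array 1 alone the differences were -0.12 for Mrpl54 and -0.12 for Mrps6. Mrps18c read 11.84, 11.77 and 11.73 on mutant arrays, against 11.77, 12.58 and 12.29 in wild type, a log2 difference of -0.43 ± 0.22 (SE, limma adjusted p = 0.559). Against wild type array 1 alone it was 0.01.

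Mrps18c is 1 of 3 paralogs, related copies that occupy different sites. Mrps18b, like Mrps18c a small subunit protein, had a log2 difference of 0.33 ± 0.22 (SE), and Mrps18a, which in solved structures sits in the large subunit despite its name, one of 0.05 ± 0.23. All 3 paralogs had overlapping groups. Mrps30, also a large subunit protein by structure, differed by 0.21 ± 0.16, and Mrps36, since found to belong to the 2-oxoglutarate dehydrogenase complex, by -0.14 ± 0.19. With genes placed by structure in place of name, the median was 0.09 over 49 large subunit genes and -0.03 over 26 small subunit genes, much as before.

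Structural neighbourhoods, taken from textbook knowledge of the ribosome, are given as description. The central protuberance had 7 of 8 listed genes above 0, all but Mrpl58 at -0.004, with a median log2 fold change of 0.24. Of these 8, 3 (37.5%, Mrpl38, Mrpl46 and Mrpl55) were higher without overlap, against 8.08% of all genes and 13.4% of genes above the median signal. Of genes above the median signal, 58.5% were above 0. With any single array left out 7 or 8 of 8 were above 0, with a median between 0.20 and 0.29, and that against wild type array 1 alone was 0.23. With every probe set on its own, 11 of 14 were above 0. This class, and Mrpl58 in it, was noted after values were seen, and it was not tested as a set. Leaving out arrays of the same data is thus no independent support for it. The 8 genes around the tunnel exit had a median of 0.03 (0.25 against wild type array 1 alone), among them Mrpl22, which lines the tunnel, at -0.23 ± 0.23 (SE), and Mrpl44, an RNase III-like protein, at -0.07 ± 0.14. The stalk, which recruits translation factors, had 4 measured genes and a median of 0.07 (0.15 against wild type array 1 alone). Of these, Mrpl10, Mrpl11 and Mrpl12 lay at 0.05 ± 0.20, 0.09 ± 0.15 and 0.13 ± 0.25 (SE, log2), with overlapping groups. The 8 genes of the small subunit head had a median of -0.04, with 0 genes without overlap, and of 0.10 against wild type array 1 alone.

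Conserved and mitochondria-specific proteins were compared within each subunit. Conserved large subunit genes (29) had a median of 0.07 and mitochondria-specific ones (20) of 0.13. In the small subunit, 16 conserved genes had a median of -0.10, with 5 above 0, and 10 mitochondria-specific genes one of 0.22, with 7 above 0. Against wild type array 1 alone the small subunit medians were 0.29 for conserved genes, with 13 of 16 above 0, and 0.44 for mitochondria-specific genes. Against wild type arrays 2 and 3 they were -0.26 and 0.11. The large subunit medians were 0.18 for conserved and 0.21 for mitochondria-specific genes against wild type array 1 alone. None of the genes in these classes passed the test. Conserved members near the low end were Mrpl14 at -0.32 ± 0.31, Mrpl28 at -0.30 ± 0.20 and Mrps21 at -0.25 ± 0.30 (SE, log2). Against wild type array 1 alone these turned to 0.33, 0.02 and 0.43. Among the genes known from human mitochondrial disease, Mrps16 stood at -0.10 ± 0.26, Mrps22 at 0.19 ± 0.18 and Mrps28 at -0.10 ± 0.26, and Mrps12, of the decoding centre, stood at -0.04 ± 0.39. Against wild type array 1 alone Mrps16, Mrps28 and Mrps12 turned to 0.41, 0.30 and 0.63. The other 46 members lay between -0.28 and 0.47, with 25 above 0 and adjusted p of at least 0.541 in limma.

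Agreement between probe sets limits each of these values. Of 42 members with several single-gene probe sets, 18 had all differences on one side of 0 and 24 did not. In 3 members (Mrpl15, Mrpl17 and Mrpl54) probe sets differed in opposite directions by over 0.3. Disagreement was not confined to these. The brightest and another probe set read -0.11 and 0.73 for Mrps14, -0.04 and 0.60 for Mrpl57 and -0.25 and 0.36 for Mrps21, examples picked after values were seen. A pair of members shares a promoter window. Mrpl46 and Mrps11 lie head to head on chromosome 7, with starts 42 bases apart and 141 bases of promoter window in common. They had log2 differences of 0.24 and -0.10, with overlapping groups in Mrps11, which was chosen after its values were seen.

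Genes that work with the mitochondrial ribosome were read from lists, and 0 members of any list were called in limma. The counts without overlap that follow stand beside 8.08% higher and 7.98% lower of all genes, and 13.4% and 7.28% of genes above the median signal. Of 25 assembly factors, 4 were higher without overlap and 0 lower, with a median log2 fold change of 0.02. Noa1, a GTPase of ribosome assembly, read 10.82, 10.91 and 11.18 on mutant arrays, against 10.07, 10.15 and 10.22 in wild type. The groups of Noa1 were wide apart for their spread, with a log2 difference of 0.82 ± 0.16 (SE, limma adjusted p = 0.157). Rcc1l, which binds the large subunit's assembly intermediates, read 9.12, 9.22 and 8.47 on mutant arrays, against 8.38, 6.85 and 6.81 in wild type, a log2 difference of 1.59 ± 0.43 (SE, limma adjusted p = 0.273). Mutant array 3 barely exceeded wild type array 1 there. Mrm3, a methyltransferase of the large ribosomal RNA, differed by 0.55 ± 0.18 (SE). Of the 25 factors 17 were above 0 and 8 below. The lower ones of smallest p were Grsf1 at -0.31 ± 0.21, Mettl17 at -0.23 ± 0.23 and Mpv17l2 at -0.13 ± 0.27 (SE), with overlapping groups.

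Of 16 measured translation factors and their partners, 5 were higher and 1 lower without overlap, with a median of 0.14. Lrpprc, which stabilises mitochondrial messages, read 11.04, 10.86 and 10.93 on mutant arrays, against 10.51, 10.26 and 10.11 in wild type, a log2 difference of 0.65 ± 0.17 (SE, limma adjusted p = 0.244). All mutant values of Lrpprc were higher. The insertase gene Oxa1l differed by 0.57 ± 0.15, the elongation factor gene Tufm by 0.60 ± 0.17 and the recycling factor gene Mrrf by -0.32 ± 0.16 (SE, log2). Of 19 mitochondrial tRNA synthetase genes (median 0.18), 2 were higher without overlap, Wars2 at 1.09 ± 0.40 and Hars2 at 0.49 ± 0.22. Hars2 stood at -0.01 with the mean of its probe sets. In this list 17 genes were above 0 and 2 below, Aars2 at -0.20 ± 0.24 and Tars2 at -0.09 ± 0.20 (SE). Of 14 genes for the upkeep and transcription of mitochondrial DNA (median 0.21), 2 were higher and 1 lower without overlap. These were the helicase gene Twnk at 0.61 ± 0.14 (limma adjusted p = 0.220), the topoisomerase gene Top1mt at 0.74 ± 0.25 and the termination factor gene Mterf2 at -1.13 ± 0.35. Of the 14 genes 10 were above 0 and 4 below, among them Mterf1a at -0.48 ± 0.24 (SE), with overlapping groups. Proteins of the mitochondrial ribosome with other names had a median of 0.03 over 4 measured genes. Chchd1 was higher without overlap at 0.18 ± 0.15, Dap3 stood at 0.09 ± 0.19, Ptcd3 at -0.03 ± 0.18 and Gadd45gip1 at -0.17 ± 0.23 (SE, log2).

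Of 11 regulators of such genes, 4 were higher without overlap and 0 lower, with a median of 0.11. The 1 gene below 0 was Gabpb1, at -0.03 ± 0.19 (SE, log2). Ppargc1b, a coactivator of the PGC-1 family, read 9.20, 9.0 and 9.31 on mutant arrays, against 8.51, 7.57 and 7.47 in wild type. The log2 difference of Ppargc1b was 1.32 ± 0.28 (SE, limma adjusted p = 0.174), and without wild type array 1 it was 1.65 with a limma adjusted p of 0.0421. Wild type array 1 was the highest of the wild type arrays, and against it alone Ppargc1b differed by 0.66. Myc, a growth regulator that binds the E-box, differed by 0.41 ± 0.16, and Eif4ebp2, a translation repressor controlled by mTORC1, by 0.48 ± 0.19 (SE, log2). Of 22 proliferation genes, 6 were higher without overlap and 0 lower, and the list mean was 10.97 to 11.05 on mutant arrays, against 10.80 to 10.95 on wild type arrays. The part of proliferation in the values above was not tested.

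Other large complexes served as comparison. The 48 cytosolic ribosomal protein genes had a median log2 fold change of 0.03, with 9 higher (18.8%) and 2 lower (4.17%) without overlap. The 81 nuclear oxidative phosphorylation genes had one of -0.02, with 9 higher (11.1%) and 6 lower (7.41%). Neither list had a gene called. Rpl12 was higher without overlap at 0.66 ± 0.19 and Rpl39l, a variant of Rpl39, lower at -0.64 ± 0.28. Atp5b, the catalytic subunit of ATP synthase, stood at 0.47 ± 0.14, and Cox7a1, a cytochrome oxidase isoform of muscle read here at a dim signal, at -0.86 ± 0.16 (SE, log2). Per array, cytosolic ribosomal protein genes averaged -0.04, 0.003 and 0.06 on mutant arrays, against -0.09, 0.09 and -0.03 in wild type. Oxidative phosphorylation genes averaged -0.08, 0.02 and 0.03 on mutant arrays, against -0.19, 0.10 and 0.12 in wild type. Wild type array 1 was the lowest array in every one of these groups, as in the mitochondrial ribosome.

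**Figure D4:**
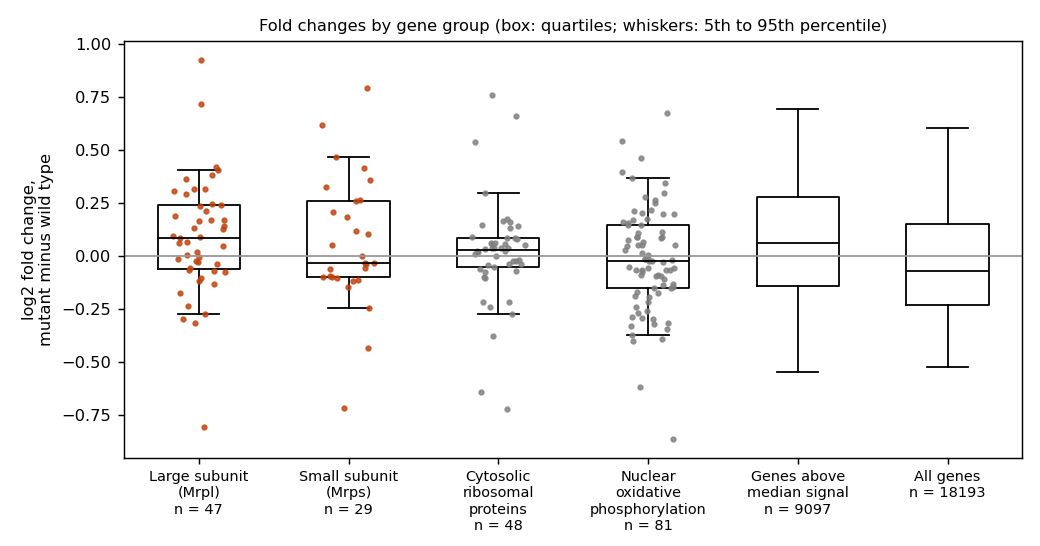
Log2 fold changes (y axis, mutant minus wild type) of 47 Mrpl genes, 29 Mrps genes, 48 cytosolic ribosomal protein genes, 81 nuclear oxidative phosphorylation genes, the 9097 genes above the median signal and all 18193 genes. Boxes give quartiles, whiskers the 5th to 95th percentile and points single genes, and the medians of all groups lie between -0.07 and 0.09.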

How the data were processed

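Arrays of a single colour measured RNA from 3 mutant and 3 wild type samples. The values deposited by the authors are intensities of probe sets, and the submitters' processing notes name RMA with no version. They are on a linear scale, so log2 was taken before every step. The number of arrays limits the precision. At most 99 probe sets were identical between any pair of arrays.

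Of 45101 probe sets, 64 controls, 9160 naming no gene and 932 naming several genes were left out, and 34945 remained for 18193 genes. Member identifiers all matched the GRCm38.p6 gene table, which also names the promoters. The groups were tested on log2 values in R 4.3.3 with limma 3.58.1, by lmFit and plain eBayes, two-sided, with Benjamini-Hochberg adjustment over all genes and no covariate. Errors are SE of limma or SD. The test procedure was tested on simulated data with independent noise of the same SD in both groups. In these arrays wild type SD was the larger in 75.8% of genes, which the simulation does not cover. Members, lists, structural classes and motifs were chosen with earlier results of these data known. Single genes were named if called, if among up to 8 per subunit and direction with the largest fold change without overlap, if among up to 4 per subunit and direction with the smallest p, if known for structure or disease, if among up to 3 per list and direction with the smallest p, or if their probe sets disagreed by over 0.3. Of the genes this took from lists, those printed were picked after their values were seen. Replicate numbers were checked as pairs: deviations of samples with the same number correlated at 0.18, -0.03 and 0.06. Those of samples with different numbers correlated at -0.16 to 0.09. With 3 arrays per group this cannot settle whether samples were paired, and the main fit takes them as unpaired. The alternatives, 18 in all, are given in the closing section. The one that leaves out both arrays with Y-linked signal was chosen after seeing the data.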

Additional observations from a re-analysis of the deposited data

How the results depend on the processing

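In 18 alternatives 0 members were called. The count of all genes called, 20 as reported, was 10 with the replicate number as a block, where 0 members were called. It was 12 with every probe set on its own, 40 with trend and robust fitting and 8 with array weights. On log2(value + 16) it was 11, and with a Y-linked covariate 0. It was 5 to 31 with single arrays left out (5 without wild type array 3, 31 without wild type array 1). With both Y-linked arrays left out, 1 wild type array remains, its spread is taken from the mutants, and the covariate fit rests on it too. The Mrpl median, 0.09 as reported, was 0.20 with both left out, 0.19 with the covariate, 0.038 with quantile normalization again and 0.028 to 0.15 with single arrays left out. The Mrps median, -0.03 as reported, was 0.32 with the covariate and 0.30 with both left out, and -0.065 to 0.12 with single arrays left out. The Mrpl minus Mrps difference, 0.12 as reported, was 0.043 with probe sets averaged per gene, -0.12 with the covariate and -0.11 with both left out, and -0.0019 to 0.093 with single arrays left out. Members higher without overlap, 9 as reported, were 17 of 156 probe sets, 49 with both left out and 12 to 19 with single arrays left out. Members lower without overlap, 0 as reported, were 1 with probe sets averaged, 1 with every probe set, 3 with both left out and 0 to 12 with single arrays left out (12 without wild type array 1). Fewer arrays make overlap rarer by construction, and the cause of the other shifts was not tested.

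Of 967 values for 54 single genes under the alternatives, 925 kept direction and call, 41 turned sign and 1 passed the threshold (Ppargc1b). With the Y-linked covariate the sign turned for Mrpl14 (0.31), Mrps12 (0.65), Mrps16 (0.38), Mrps21 (0.40), Mrps28 (0.32), Mrps36 (0.19), Mrps11 (0.38) and Gadd45gip1 (0.19). With both arrays left out it turned for the same genes, to 0.33 for Mrpl14, 0.63 for Mrps12, 0.41 for Mrps16, 0.43 for Mrps21, 0.30 for Mrps28, 0.21 for Mrps36, 0.43 for Mrps11 and 0.18 for Gadd45gip1, and for Mrpl22 (0.052), Mrpl28 (0.022) and Mrps18c (0.0086). Elsewhere it turned for Mrpl10 (-0.024, quantile normalization again), Mrpl44 (0.0042), Mrps21 (0.054) and Hars2 (-0.010) with probe sets averaged, and Mrps18a (-0.033) and Ptcd3 (0.016) with array weights. With single arrays left out the ranges that cross 0 were -0.081 to 0.20 for Mrpl10, -0.098 to 0.30 for Mrpl12, -0.38 to 0.020 for Mrpl22, -0.37 to 0.33 for Mrps12, -0.35 to 0.081 for Mrps16, -0.19 to 0.24 for Mrps18a, -0.30 to 0.16 for Mrps28, -0.36 to 0.16 for Mrps11, -0.052 to 0.25 for Dap3 and -0.15 to 0.11 for Ptcd3. With 3 arrays per group, differences of the size seen in most members are within the spread of the wild type arrays.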
